A study of Mus musculus with 6 samples.

Results

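The unfolded protein response of the endoplasmic reticulum (ER) was followed in splenic monocytes through 40 genes, chosen by name as known sensors, regulators, targets and folding enzymes of this response, with no threshold on a measured value but with earlier results of these data known. They were 40 of the 46072 gene identifiers in the deposited tables, each found once, and were read by role as the PERK branch (9 genes), the IRE1 branch (6), the ATF6 branch (4), ER-associated degradation (8) and ER folding (13). Messenger RNA of splenic monocytes from 6 female C57BL/6 mice was sequenced, with 1 library per mouse. The 3 Con mice were gavaged with water for 6 days. The 3 Van mice were gavaged with vancomycin, an antibiotic that is poorly absorbed from the gut, as 2 doses of 1 mg a day for 6 days. All 6 mice were then left without antibiotic, for 6 to 8 days per the labels and 8 days where the study describes these libraries, and the monocytes were taken for RNA without stimulation in culture. The mice were 8 to 10 weeks old when obtained and were all of the same strain and sex. Monocytes were enriched by magnetic removal of other cells, so the libraries are of bulk cells. The combining of spleens is described for the cultured monocytes and not for these libraries.

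The ER is where secreted and membrane proteins are folded, and unfolded protein there is sensed by PERK (encoded by Eif2ak3), IRE1 (Ern1) and ATF6. PERK phosphorylates the translation factor eIF2alpha, which lowers protein synthesis while translation of ATF4 goes up; IRE1 splices the Xbp1 messenger RNA; and ATF6 is cut in the Golgi by the site-1 and site-2 proteases to free a transcription factor. ATF6 and XBP1 induce chaperones, oxidoreductases and degradation genes, and monocytes call on this machinery when they make cytokines or mature into macrophages. These steps are largely changes of protein or of splicing, so gene-level RNA shows only their transcribed part.

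A known feature of these genes is the ER stress response element (ERSE), the letters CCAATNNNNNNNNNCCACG, to which ATF6 binds together with the factor NF-Y. It was searched on both strands of the promoter windows of RefSeq on GRCm38.p6, which span 250 bases before to 50 bases after each start, and 34 of the 40 genes had a window. The element was in 8 of the 34, or 23.5%, against 37 of 27025 genes or 0.137% over all promoters. The 8 sites are shown because this element is known from the promoters of ER chaperones. They read 5′ to 3′ along the strand of the gene, with the fixed letters in capitals, and 5 of the 8 come from ER folding genes.
Hspa5 (chr2:34772019-34772049): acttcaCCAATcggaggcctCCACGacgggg
Calr (chr8:84847069-84847099): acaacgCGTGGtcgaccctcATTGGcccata
Canx (chr11:50325794-50325824): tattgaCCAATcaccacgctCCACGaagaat
Pdia6 (chr12:17266485-17266515): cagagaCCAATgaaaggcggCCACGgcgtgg
Creld2 (chr15:88819514-88819544): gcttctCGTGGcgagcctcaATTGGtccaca
Syvn1 (chr19:6046526-6046556): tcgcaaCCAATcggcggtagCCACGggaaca
Derl3 (chr10:75893236-75893266): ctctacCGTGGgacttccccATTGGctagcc
Dnajc3 (chr14:118937821-118937851): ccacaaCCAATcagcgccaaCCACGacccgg

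The element lay 65 to 47 bases before the start in Hspa5, 98 to 80 bases before it in Pdia6 and 162 to 144 bases before it in Calr, and in Calr, Creld2 and Derl3 it was found on the opposite strand. These distances are from the RefSeq start, and GENCODE begins Hspa5 upstream of it, so that the Hspa5 site lies inside the GENCODE gene given further on. The whole window of Hspa5, which encodes the main ER chaperone BiP, is chr2:34771840-34772139 on the plus strand and is given to show the element in its surroundings, again in capitals.
Hspa5: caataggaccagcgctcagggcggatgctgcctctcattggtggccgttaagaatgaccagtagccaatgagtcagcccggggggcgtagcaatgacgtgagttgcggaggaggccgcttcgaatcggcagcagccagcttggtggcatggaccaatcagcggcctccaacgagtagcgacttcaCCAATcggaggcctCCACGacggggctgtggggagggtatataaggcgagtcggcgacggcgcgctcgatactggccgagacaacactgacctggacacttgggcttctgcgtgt

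Other motifs of the response were rarer among the 40 genes. The second form of the element, ERSE-II (ATTGGNCCACG, either strand), was in 2 of the 34 windows, those of Herpud1 and Dnajb11, against 0.044% of all genes. The core of the unfolded protein response element (TGACGTG), bound by ATF6 and XBP1, was in Hspa5 alone, and in 2.22% of all genes. A core of the amino acid response element (TGATGNAA), read by ATF4 with partners, was in 4 of the 34 windows, those of Trib3, Chac1, Asns and Herpud1, against 4.51% of all genes, so that 3 of these 4 belong to the PERK branch. The sites of the PERK branch and of the second element are shown for comparison, with the fixed letters in capitals.
Asns (chr6:7693219-7693238): gccacaTGATGaAActtccc
Trib3 (chr2:152344033-152344052): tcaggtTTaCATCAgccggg
Chac1 (chr2:119351043-119351062): ctgccgTTgCATCActcctg
Herpud1 (chr8:94386371-94386393): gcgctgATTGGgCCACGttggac
Dnajb11 (chr16:22857846-22857868): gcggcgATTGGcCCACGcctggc
A match is a description of letters in this window and not of binding.

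The libraries held 43.4M to 61.8M estimated counts, of which the 40 genes took 0.566% to 0.612% in Con and 0.608% to 0.688% in Van. The unit behind these totals is uncertain, since the values may be covered bases divided by a read length and not fragments, so they are not read as sequencing depth. The monocyte markers were abundant in every library, with a summed level of 17700 to 18900 CPM in Con (counts scaled to library size with TMM factors) and 15800 to 18200 CPM in Van, with 2 of the 8 higher and 6 lower in Van. Of these, edgeR called Ccr2 and Fcgr1 lower and 0 higher, and DESeq2 called 3 lower and 1 (Cd14) higher. Markers of B cells, T cells, NK cells and neutrophils summed to at most 20.5 CPM each, and the neutrophil marker Ly6g was at 0 throughout. Plasma cell markers, whose cells are rich in ER proteins, summed to 1000 to 1170 CPM in Con and 771 to 908 CPM in Van. All 7 tested had a log2 fold change below 0, from -0.71 in Sdc1 to -0.04 in Mzb1 and -0.0025 in Prdm1. Ighm was called lower by edgeR, and Ighm and Sdc1 by DESeq2. Dendritic cell markers summed to 78.9 to 109 CPM in Con and 84.4 to 99.8 CPM in Van, with 4 of 5 lower and 0 called by edgeR, 3 at an unadjusted p under 0.05 (1 higher and 2 lower), and Xcr1 and Siglech called lower by DESeq2. Erythroid markers summed to 50.9 to 105 CPM in Con and 171 to 381 CPM in Van, with Alas2, Hba-a1 and Hbb-bs called higher, and 5 red pulp macrophage markers to 1470 to 1710 CPM in Con and 1890 to 2220 CPM in Van, with all 5 higher and 0 called by edgeR, 4 of them at an unadjusted p under 0.05 and 1 by DESeq2. The library Van 2 was the highest of the 6 in both of the last lists.

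Across the 40 genes, the most one-sided differences were in ER folding, where 12 of the 13 genes were higher in Van. The log2 fold changes of the PERK branch centred on 0.01, and the sensor genes Ern1 and Atf6 were lower in every Van mouse. These differences were small, between -0.45 and 0.58 on the log2 scale. None of the 39 tested passed the edgeR quasi-likelihood test at an adjusted p of at most 0.05, a threshold that 2.00% of the 16138 genes tested passed (174 genes or 1.08% higher, 148 genes or 0.917% lower). The test covered 39 of the 40 genes, since Chac1 was at a mean of 0.0171 CPM in Con and at 0 in every Van library. Of the 39, 31 were higher in Van, against 49.6% of all genes tested, and the median log2 fold change was 0.15 against -0.0014 over all genes.

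At an unadjusted p under 0.05, 13 of the 39 genes were higher and 3 lower, which is 41.0% against 16.5% of all genes tested (8.37% higher and 8.14% lower). Among the 8487 genes with a mean of at least 10 CPM, a level that most of the 39 exceed, this share was 22.9% (12.6% higher and 10.4% lower), and 3.35% were called. The values of the Con and Van mice did not overlap in 15 of the 39 genes, 12 higher and 3 lower, against 22.5% of all genes (11.5% higher and 11.0% lower). DESeq2, the tool that the study names, called 9 of the genes at an adjusted p of at most 0.05, 8 higher and 1 lower, against 7.36% of the 13063 genes it gave an adjusted p (3.75% higher and 3.61% lower). The 8 higher were Syvn1, Hyou1, Calr, Canx, Pdia4, Pdia6, P4hb and Creld2, and the lower was Ern1. No p was computed over the list, and in bulk RNA fewer cells of a type and less RNA per cell cannot be told apart. A single gene compared by exact permutation between 3 and 3 mice cannot reach a two-sided p below 0.1.

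The counts depended on which libraries were included. Van 2 held the highest value in 21 of the 39 genes and Con 2 the lowest in 20. Without Van 2, 9 genes were higher and 1 lower at an unadjusted p under 0.05, and without Con 2, 8 were higher and 2 lower. Over all genes the same counts were 1351 higher and 1313 lower of 16138 with every library, 973 and 1027 of 16758 without Van 2, and 1188 and 1137 of 16613 without Con 2, so that they were smaller there as well. Without Van 1, edgeR called Pdia4 (adjusted p = 0.0321) and Pdia6 (adjusted p = 0.0368) higher, and without Con 1 it called Ern1 lower (adjusted p = 0.0471).

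**Figure D1:**
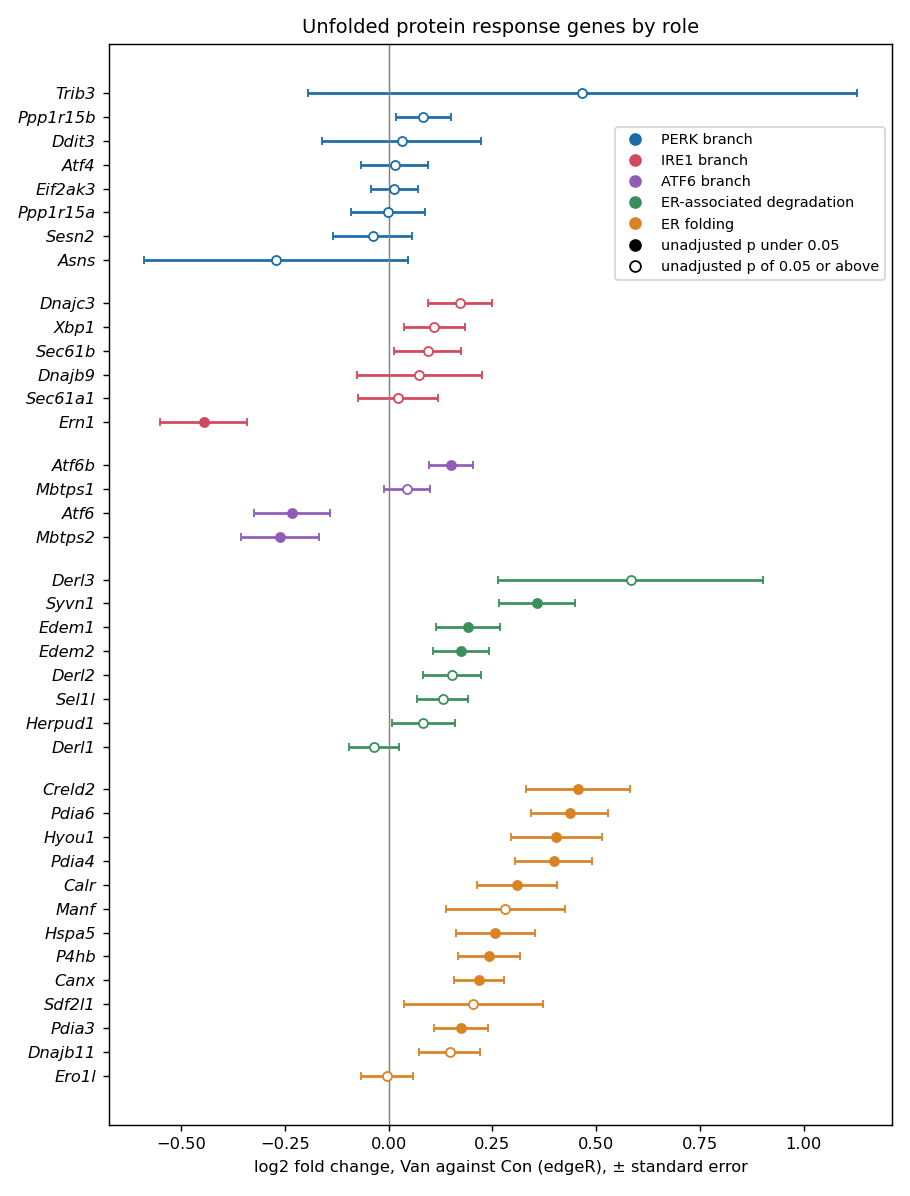
Log2 fold change of each of the 39 tested genes in Van against Con, with its standard error, grouped by role; filled points have an unadjusted p under 0.05 in edgeR. In ER folding 9 of the 13 points are filled and all of those are above 0, while none of the 8 genes of the PERK branch is filled.

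No difference in the PERK gene was detectable at this number of mice. Eif2ak3, the kinase gene at chr6:70844515-70905245, was at 80.3, 76.1 and 76.3 CPM in the Con mice and at 77.6, 81.0 and 76.3 CPM in the Van mice (log2 fold change 0.01, SE 0.06, edgeR adjusted p = 0.943). Its transcript shares a near-identical stretch with Gm43292 on the opposite strand, and how the counting treated such reads is not stated. Atf4, the transcription factor whose translation PERK favours, was at 300.0, 294 and 297 CPM in Con and at 338, 291 and 271 CPM in Van (log2 fold change 0.01, SE 0.08, adjusted p = 0.957). The Van mice were thus spread on both sides of a narrow Con range. Ddit3, which encodes the pro-apoptotic factor CHOP, was at 16.0, 21.0 and 22.9 CPM in Con and at 26.0, 19.5 and 15.6 CPM in Van (log2 fold change 0.03, SE 0.19, adjusted p = 0.962). In GENCODE M21, Ddit3 shares exon sequence on the same strand with another gene model of the same name, so its count may be split or shared, and it overlaps Mars and Gm4189 on the opposite strand.

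The feedback and target genes of this branch differed by little or were barely expressed. Ppp1r15a and Ppp1r15b, which encode the regulatory subunits that direct a phosphatase to eIF2alpha, had log2 fold changes of -0.0025 (SE 0.09) and 0.08 (SE 0.07), and overlap Tulp2 and Gm26616 on the opposite strand. Sesn2, a stress-induced regulator of growth signalling, had -0.04 (SE 0.10). The branch members Trib3, Asns and Chac1 were at or near the limit of detection. Trib3, a pseudokinase, was at 0.328, 0.901 and 0.292 CPM in Con and at 1.06, 0.884 and 0.189 CPM in Van (log2 fold change 0.47, SE 0.66), and Asns, asparagine synthetase, at 1.52, 0.902 and 1.15 CPM in Con and at 1.08, 1.16 and 0.728 CPM in Van (log2 fold change -0.27, SE 0.32). Their groups overlapped and their errors were larger than the differences. Chac1, which degrades glutathione, had counts in Con 1 only. In all, 5 of the 8 tested genes were higher and 3 lower, 0 of 8 had an unadjusted p under 0.05 in edgeR, 0 were called by DESeq2, and the groups of 0 of 8 did not overlap.

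The sensor of the IRE1 branch had the most negative log2 fold change of the 39 genes. Ern1, at chr11:106394650-106487852, was at 161, 217 and 186 CPM in the Con mice and at 145, 141 and 128 CPM in the Van mice. Every Van mouse lay below every Con mouse, with a fold of 0.734 (log2 fold change -0.45, SE 0.10). The edgeR adjusted p was 0.0735 and that of DESeq2 was 0.00172. Con 1 lay closest to the Van mice, and without it the log2 fold change was -0.55.

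The targets of IRE1 did not share that direction. Xbp1, the transcription factor whose messenger RNA IRE1 splices, was at 279, 294 and 256 CPM in Con and at 275, 304 and 317 CPM in Van (log2 fold change 0.11, SE 0.07, edgeR adjusted p = 0.527). The groups overlapped, and the total measured here holds the spliced and the unspliced form together. Dnajc3, a co-chaperone of BiP and inhibitor of PERK, was at 132, 115 and 115 CPM in Con and at 129, 146 and 133 CPM in Van (log2 fold change 0.17, SE 0.08, unadjusted p = 0.0543 and adjusted p = 0.315 in edgeR). Dnajb9, another co-chaperone and a typical XBP1 target, differed by 0.07 (SE 0.15) on the log2 scale, and the translocon subunits Sec61a1 and Sec61b by 0.02 (SE 0.10) and 0.09 (SE 0.08). Sec61b has near-identical copies (Gm10320, Gm33666 and Gm5870) and Sec61a1 shares a stretch with Gm44170. Of the 6 genes of this branch, 5 were higher, 1 was lower, and Ern1 alone had an unadjusted p under 0.05. The median log2 fold change was 0.08, and with 1 library left out it ran from 0.03 (without Con 2) to 0.13 (without Con 1).

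The ATF6 branch was split between its members, and its median was lower in all 3 Van mice (-0.087, -0.0638 and -0.0334 log2 relative to the Con means) than in the Con mice (0.0026, -0.0009 and -0.0288). Atf6, at chr1:170704674-170867771, was at 306, 256 and 234 CPM in Con and at 226, 228 and 223 CPM in Van. All 3 Van mice lay below the Con mice and close together, and Con 1 stood above the other Con mice. The log2 fold change was -0.23 (SE 0.09, unadjusted p = 0.0336 and adjusted p = 0.256 in edgeR), and without Con 1 it was -0.12. Atf6b, the related factor, differed in the opposite direction, at 103, 98.8 and 105 CPM in Con and at 115, 113 and 113 CPM in Van (log2 fold change 0.15, SE 0.05, unadjusted p = 0.0211 and adjusted p = 0.209). Both groups were narrow and apart.

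The proteases that cut ATF6 were measured as well. Mbtps2, the site-2 protease, was at 31.2, 33.3 and 31.5 CPM in Con and at 24.1, 25.6 and 30.4 CPM in Van (log2 fold change -0.26, SE 0.09, unadjusted p = 0.0219 and adjusted p = 0.212 in edgeR). Its groups did not overlap, with Van 3 close to the Con mice, and it shares exon sequence with Yy2, a gene on the same strand. Mbtps1, the site-1 protease, had overlapping groups (log2 fold change 0.04, SE 0.06). Of the 4 genes, 1 was higher and 2 were lower at an unadjusted p under 0.05 in edgeR. Over all genes tested, 8.37% were higher and 8.14% lower at that p. The median of the 4 genes was -0.09, and DESeq2 called 0 of the 4, with adjusted p from 0.129 to 0.809.

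**Figure D2:**
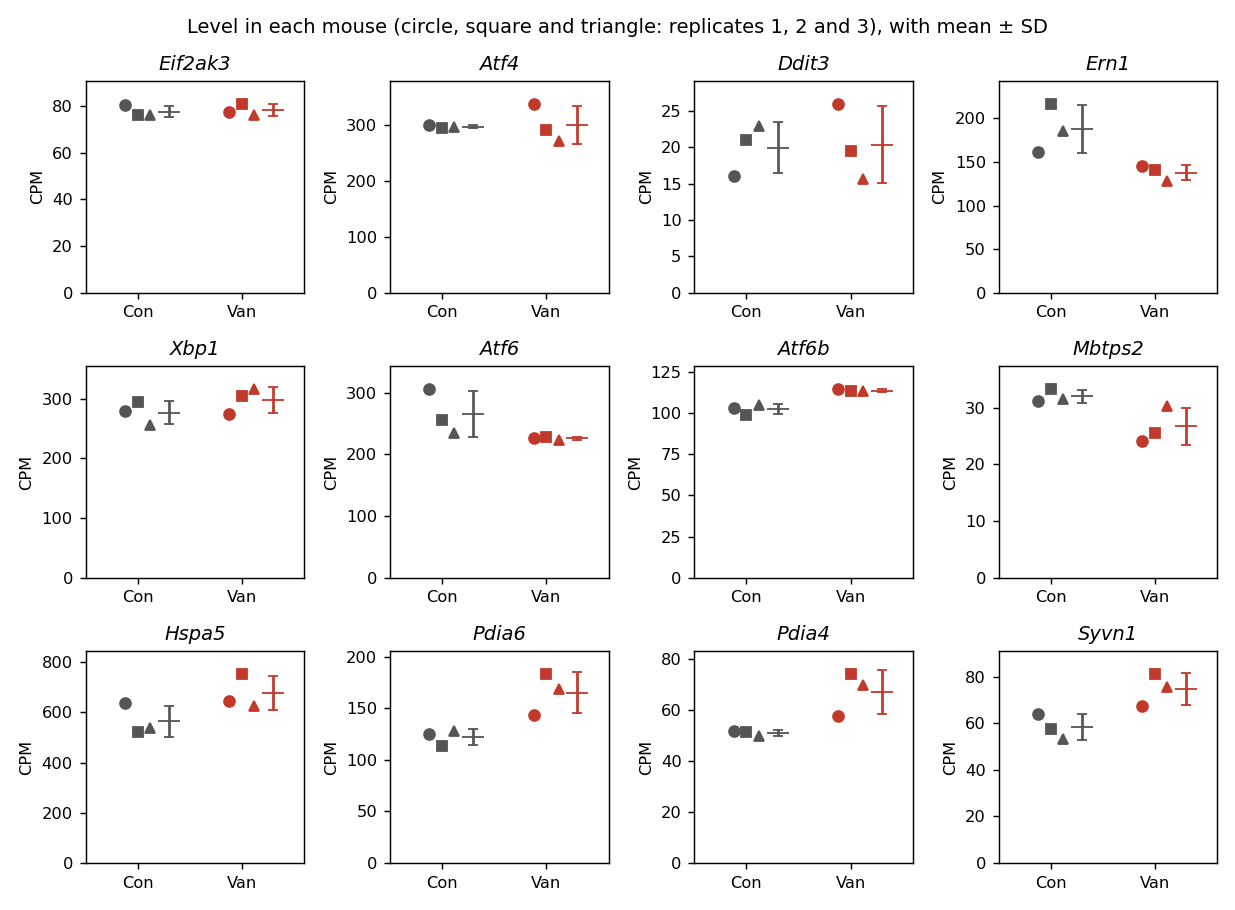
Level in CPM of 12 genes in each of the 3 Con (grey) and 3 Van (red) mice, with the mean and SD of each group beside the points. Eif2ak3, Atf4, Ddit3 and Xbp1 overlap between the groups, Ern1, Atf6 and Mbtps2 are lower in all 3 Van mice, and Pdia6, Pdia4, Syvn1 and Atf6b are higher in all 3.

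Among the 13 chaperones and folding enzymes of the ER, 9 were higher at an unadjusted p under 0.05 in edgeR and 0 lower, and DESeq2 called 7, all higher. Their median log2 fold change was 0.26, and 8 of the 13 had groups that did not overlap. Over all genes the shares were 16.5% at that p (8.37% higher), 7.36% called by DESeq2 (3.75% higher) and 22.5% without overlap (11.5% higher). Among genes with a mean of at least 10 CPM, 12.6% were higher at that p. Hspa5, the chaperone BiP at chr2:34771970-34777547, was at 636, 521 and 539 CPM in Con and at 647, 753 and 627 CPM in Van (log2 fold change 0.26, SE 0.10). Con 1 lay above Van 3, so its groups overlapped, and the edgeR adjusted p was 0.226 and that of DESeq2 0.0873. Hyou1, a large chaperone that exchanges the nucleotide of BiP, was at 121, 97.2 and 106 CPM in Con and at 128, 164 and 138 CPM in Van (log2 fold change 0.40, SE 0.11). Its adjusted p was 0.109 in edgeR and 0.00726 in DESeq2.

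The lectin chaperones that hold newly made glycoproteins were higher in every Van mouse. Calr, soluble calreticulin, was at 433, 416 and 469 CPM in Con and at 498, 630 and 504 CPM in Van (log2 fold change 0.31, SE 0.10, adjusted p = 0.157 in edgeR and 0.0318 in DESeq2). Canx, its membrane-bound relative calnexin, was at 304, 297 and 301 CPM in Con and at 331, 376 and 342 CPM in Van (log2 fold change 0.22, SE 0.06, adjusted p = 0.116 in edgeR and 0.0218 in DESeq2). In Canx the Con mice were closer to each other than to the nearest Van mouse.

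The disulfide isomerases, which form and rearrange disulfide bonds, held the gene closest to the edgeR threshold. Pdia6, at chr12:17266545-17284770, was at 125, 113 and 128 CPM in Con and at 144, 183 and 168 CPM in Van (fold 1.35, log2 fold change 0.44, SE 0.09). Its adjusted p was 0.0573 in edgeR and 0.000517 in DESeq2. Pdia4 was at 51.9, 51.5 and 49.7 CPM in Con and at 57.6, 74.2 and 69.8 CPM in Van (log2 fold change 0.40, SE 0.09, adjusted p = 0.0734 in edgeR and 0.00366 in DESeq2). In both genes Van 1 was the Van mouse nearest to Con and Van 2 the farthest.

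The more abundant isomerases differed by less. P4hb, protein disulfide isomerase itself, was at 360.3, 331 and 318 CPM in Con and at 364, 403 and 426 CPM in Van (log2 fold change 0.24, SE 0.07, adjusted p = 0.151 in edgeR and 0.0338 in DESeq2). Pdia3, which works with calreticulin and calnexin, was at 382, 363 and 380 CPM in Con and at 387, 448 and 434 CPM in Van (log2 fold change 0.17, SE 0.07, adjusted p = 0.232 in edgeR and 0.129 in DESeq2). The groups of both did not overlap, with a narrow gap between the highest Con and the lowest Van mouse. Exons of Pdia6 and Pdia3 overlap Atp6v1c2 and Catsper2 on the opposite strand, and Pdia4 holds the small RNA gene Mir704.

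Creld2, an ER-resident protein induced by ER stress, had the largest log2 fold change of the folding genes, at 0.46 (SE 0.13). It was at 15.6, 15.1 and 19.7 CPM in Con and at 20.8, 25.9 and 22.4 CPM in Van, without overlap (adjusted p = 0.113 in edgeR and 0.0256 in DESeq2). Manf, a secreted ER stress factor, differed by 0.28 (SE 0.14), Sdf2l1 by 0.20 (SE 0.17) and the BiP co-chaperone Dnajb11 by 0.15 (SE 0.07), and each had overlapping groups. Manf shares exon sequence with Rbm15b on the same strand. Ero1l, the oxidase that recharges the isomerases, was the exception, at 45.2, 41.7 and 46.0 CPM in Con and at 44.2, 44.6 and 43.7 CPM in Van. Its fitted difference was -0.0038 on the log2 scale (SE 0.06), and its groups overlapped.

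Van 2 was the highest library in 11 of the 13 folding genes and Con 2 the lowest in 10. The median over the 13 genes, relative to the Con mean of each gene, was 0.03, -0.09 and 0.02 log2 in the Con mice and 0.14, 0.44 and 0.24 log2 in the Van mice. All 3 Van mice lay above the Con mice, and without Van 2 the median log2 fold change was 0.17, with 12 of 13 genes still higher. Van 2 also had the highest erythroid and red pulp macrophage sums, and a plasma cell sum of 854 CPM, below that of every Con library. The part of any of these cells in the result was not tested.

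**Figure D3:**
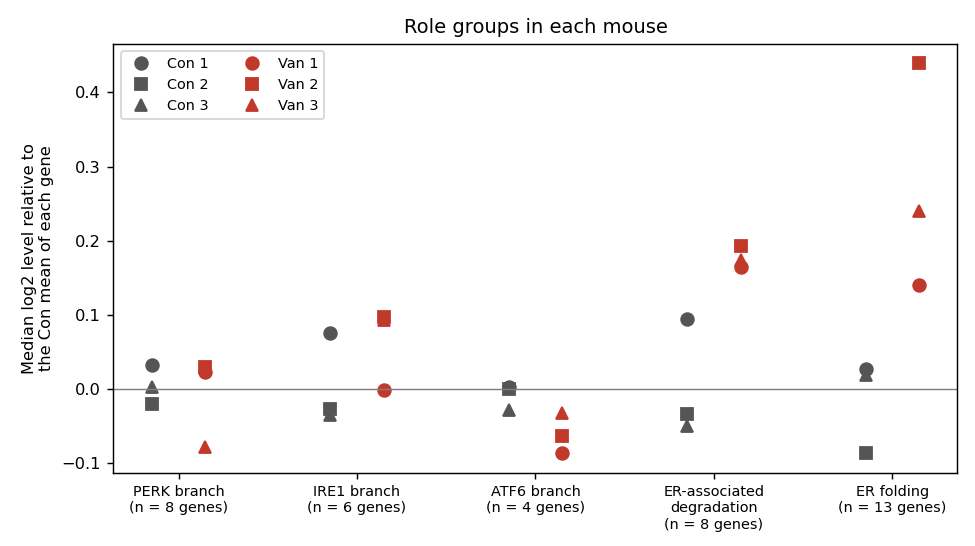
Median log2 level of the tested genes of each role in each mouse, relative to the Con mean of each gene, with circles, squares and triangles for replicates 1, 2 and 3. ER folding and ER-associated degradation have all 3 Van mice above the Con mice, from 0.14 to 0.44 and from 0.16 to 0.19, the ATF6 branch has all 3 Van mice below the Con mice by a narrow margin, from -0.087 to -0.0334 against -0.0288 to 0.0026, and in the PERK and IRE1 branches the groups overlap.

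Genes of ER-associated degradation, which sends misfolded proteins back to the cytosol, lay mostly above Con as well. Syvn1, the ubiquitin ligase HRD1 at chr19:6046576-6053712, was at 64.2, 57.8 and 53.3 CPM in Con and at 67.6, 81.3 and 75.7 CPM in Van (log2 fold change 0.36, SE 0.09, adjusted p = 0.0955 in edgeR and 0.00844 in DESeq2). Its groups did not overlap, and it shares exon sequence with Mrpl49 on the opposite strand. Edem2, which trims the sugars of misfolded glycoproteins, was at 61.1, 53.7 and 55.3 CPM in Con and at 64.5, 64.8 and 62.6 CPM in Van (log2 fold change 0.17, SE 0.07, unadjusted p = 0.0296 and adjusted p = 0.242 in edgeR). Edem1, of the same family, was at 291, 258 and 240.0 CPM in Con and at 283, 310 and 308 CPM in Van (log2 fold change 0.19, SE 0.08, adjusted p = 0.273), with Con 1 above Van 1.

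The channel and adaptor genes differed less, except for Derl3 at its low level. Sel1l, the partner of HRD1, had a log2 fold change of 0.13 (SE 0.06) and Herpud1 of 0.08 (SE 0.08), both with overlapping groups. Derl2 was at 34.36, 35.23 and 33.48 CPM in Con and at 39.74, 35.36 and 39.53 CPM in Van (log2 fold change 0.15, SE 0.07, unadjusted p = 0.0575 and adjusted p = 0.322 in edgeR). Its groups did not overlap, but Van 2 lay only just above Con 2. Derl1 was at 160.3, 145 and 158 CPM in Con and at 153, 153 and 145 CPM in Van (log2 fold change -0.03, SE 0.06). Derl1 and Derl2 have near-identical or overlapping partners in Gm35638 and Mis12. Derl3 had the largest log2 fold change of the 39 genes, 0.58 (SE 0.32), at the lowest level of this group, 0.584, 0.864 and 0.607 CPM in Con and 0.999, 1.23 and 0.847 CPM in Van, with overlap (adjusted p = 0.415). Of the 8 genes, 7 were higher, 3 of them at an unadjusted p under 0.05, and 0 were lower at that p. Over all genes tested, 8.37% were higher and 8.14% lower at that p. The median of the 8 genes was 0.16, and it was 0.13 to 0.20 when any 1 library was left out.

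The 8 genes with an ERSE in the window were all higher in Van, by a median of 0.33 on the log2 scale. Of the other 25 tested genes with a window, 19 were higher and the median was 0.09. This was described and not tested, since 5 of the 8 are folding genes and the role and the element go together. Pdia4, without the element in its window, was at 0.40 and Dnajc3, with it, at 0.17, so the ranges of both classes overlapped. Over all windows 37 genes held the element, of which 19 were tested and 14 were higher, 7 of them at an unadjusted p under 0.05. Among the 11 tested genes with the element that are not among the 40, the median was 0.04 and 6 were higher.

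**Figure D4:**
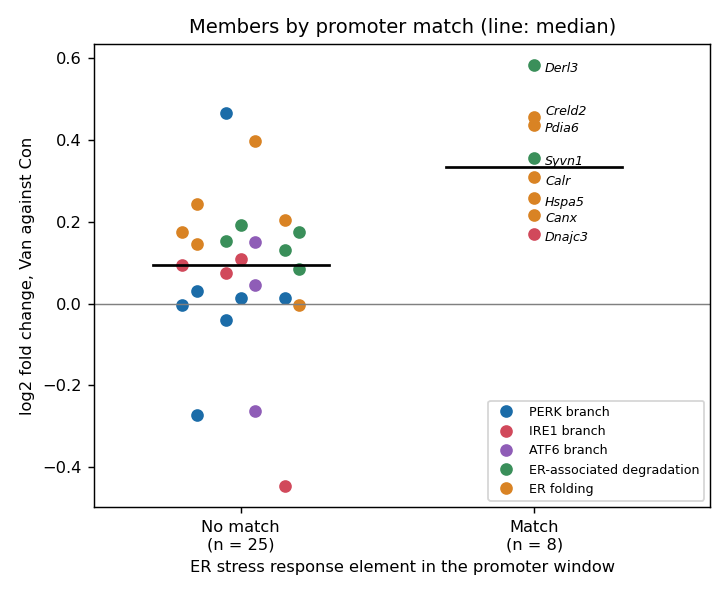
Log2 fold change in Van against Con of the 33 tested genes that have a promoter window, by whether the window holds the ER stress response element; colours give the role and the black line the median. The 8 genes with the element lie between 0.17 and 0.58 with a median of 0.33, and the 25 without it lie between -0.45 and 0.47 with a median of 0.09.

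Other genes of the same pathways, were read from lists of 91 genes that are not among the 40. Of the 87 tested, 56 were higher and 31 lower, with a median log2 fold change of 0.05. By edgeR, 0 were called, and 9 were higher and 3 lower at an unadjusted p under 0.05. That is 13.8% in all, against 16.5% of all genes tested (8.37% higher and 8.14% lower). DESeq2 called 5 higher and 1 lower of 87, against 7.36% of all genes (3.75% higher and 3.61% lower). With both directions together, neither share was above that of all genes, but the larger part in each was higher. The groups did not overlap in 16 higher and 5 lower genes, 24.1% against 22.5% of all genes (11.5% higher and 11.0% lower). The gene with the smallest p was Hsp90b1, the ER form of HSP90, at 436, 398 and 443 CPM in Con and at 510.1, 598 and 532 CPM in Van. The fitted log2 difference was 0.36 (SE 0.07), with an edgeR adjusted p of 0.05001, just outside the threshold, and a DESeq2 adjusted p of 0.000389. It is also the gene outside the 40 that held the element and had an unadjusted p under 0.05.

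Among the other ER folding genes, 13 of 16 were higher, with a median of 0.10. Among the other degradation genes, 10 of 15 were higher, with a median of 0.06. There Ube2g2, a ubiquitin-conjugating enzyme that works with the ER ligases, was higher by 0.29 (SE 0.06, edgeR adjusted p = 0.051) and Erlec1, an ER lectin, lower (log2 fold change -0.33, SE 0.07, adjusted p = 0.0621). Among the other eIF2alpha kinases and genes linked to ATF4, 14 of 24 were higher, with a median of 0.04, and Cebpg, a partner of ATF4, had the smallest p (log2 fold change 0.34, SE 0.08, adjusted p = 0.0621). The translocon, signal peptidase and glycosylation genes had a median of 0.02 over 21 genes, with Sec11a of the signal peptidase first by p (0.18, SE 0.07, adjusted p = 0.251). Of 11 other regulators 5 were higher, with a median of -0.02, and Nfyb, a subunit of NF-Y, came first by p (0.21, SE 0.08, adjusted p = 0.243).

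The cytosolic chaperones, which fold proteins outside the ER and are induced mainly by the heat shock factor, held the only edgeR calls among these lists. Of 29 genes tested, 28 were higher, and edgeR called 12 of them, all higher (Hsph1, Stip1, Fkbp4, Chordc1, Dnaja1, Hsp90aa1, Hspa8, Hsp90ab1, Ahsa1, Ptges3, Cct3 and Bag3). Hsph1, a nucleotide exchange factor of HSP70, rose from 36.7 ± 2.83 CPM to 124 ± 5.59 CPM (SD, n = 3; log2 fold change 1.76, SE 0.07, adjusted p = 3.946e-05). The median over the list was 0.35, next to 0.26 for the 13 ER folding genes, and the difference between the lists was not tested. Without Van 2, 5 of the 29 were called, and without Con 3, 6.

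**Figure D5:**
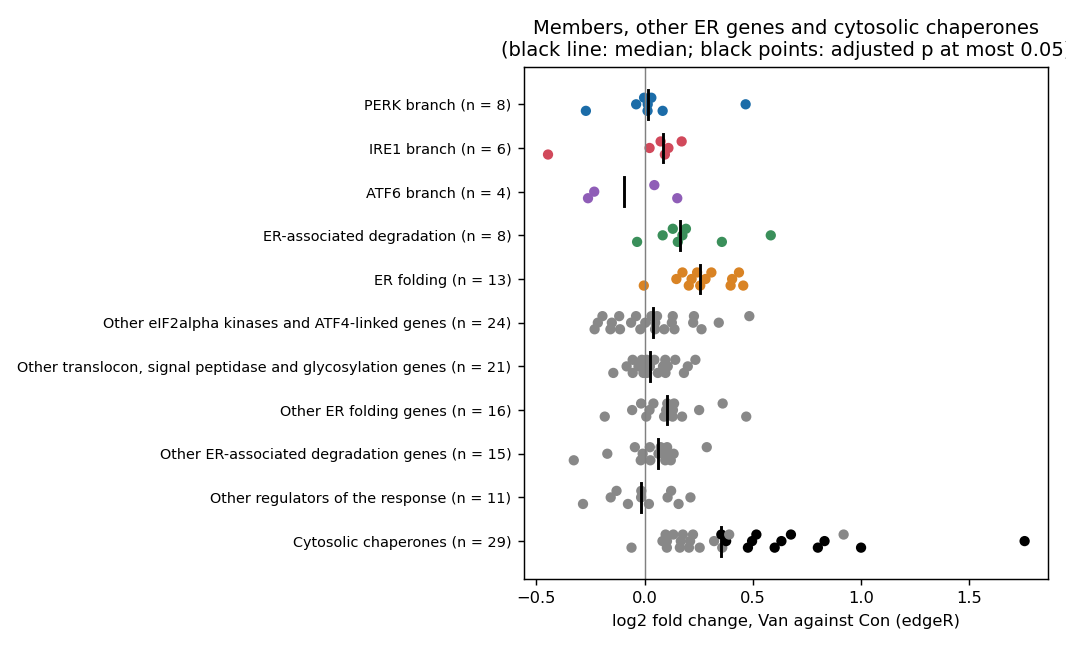
Log2 fold change in Van against Con of every tested gene of the 5 roles, of 5 lists of other ER genes and of the cytosolic chaperones; black lines are medians and black points have an edgeR adjusted p of at most 0.05. Black points appear only in the cytosolic chaperones, where 12 of 29 genes passed; the ER folding genes have a median of 0.26 with none past it.

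Levels per transcript length, as the deposited FPKM values (fragments scaled for transcript length and depth), put folding genes at the top in both groups. Hspa5 had 178 ± 19.0 FPKM in Con and 211 ± 20.9 FPKM in Van, and Calr 171 ± 12.7 and 214 ± 32.8 FPKM (SD, n = 3). Atf4 (144 FPKM), Xbp1 (124 FPKM) and Pdia3 (114 FPKM) followed in Con, as they did in Van at 146, 133 and 129 FPKM. Of the sensors, Atf6b (33.8 ± 1.56 FPKM in Con) and Atf6 (30.6 ± 3.90 FPKM) were above Ern1 (23.0 ± 3.33 FPKM) and Eif2ak3 (14.7 ± 0.387 FPKM). In the order of Con levels, the ranges of mean ± SD met in 27 of 39 neighbouring pairs, so that most adjacent places cannot be told apart. Ern1 was in place 22 of 40 in Con and in place 29 in Van, at 17.2 ± 1.258 FPKM.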

How the data were processed

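The authors aligned reads of poly(A) RNA, from a stranded TruSeq preparation, to GRCm38 with HISAT2 2.2.1, used SAMtools 1.9, and quantified genes with StringTie 2.1.3 and Ballgown. The deposited expected counts come from tximport, are not scaled to library size and may not be in units of fragments, and the deposited FPKM values were scaled by the authors for transcript length and depth. The release of the annotation, the treatment of reads with several alignments and the use of strand are not given in the sources used here. The third cohort of the study was not analysed here.

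Expected counts were rounded and fitted over all genes with edgeR 4.0.16 in R 4.3.3 (TMM, expression filter at a minimum count of 10, quasi-likelihood test on group), with Benjamini-Hochberg adjustment and calls at an adjusted p of at most 0.05. SE is the absolute log2 fold change over the square root of F. CPM uses TMM-scaled libraries. Replicates within a group differed beyond counting noise, so none was merged. P-values test the difference between 3 and 3 mice, against a variance that the fit estimates with help from all genes. The scripts were tested on simulated data. Alternatives were DESeq2 1.42.0, other scalings and filters, counts scaled to fragments, a single identifier per symbol, limma 3.58.1 on quantile-normalised log2(FPKM + 1) or log2(FPKM + 0.1) values, a replicate block, and each library left out.

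The 40 genes, the other lists and the markers were chosen by known role, with earlier results of these data known. Values per mouse are given for 8 central genes (Hspa5, Xbp1, Ern1, Eif2ak3, Atf6, Atf6b, Atf4, Ddit3), for genes with an unadjusted p under 0.05 and for the extremes of each role; of the other lists, called genes and the smallest p are named. Erlec1, Alg12, Ero1lb and Hnrnpa3 were named, and the share at 10 CPM or more added, after the data were seen. Gene positions are GENCODE M21 on GRCm38, and near-identical means at least 200 bases at 95% identity between transcripts (blastn 2.17.0). Promoter windows are 300 bases from RefSeq. Figures were drawn with matplotlib.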

Additional observations from a re-analysis of the deposited data

How the results depend on the processing

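The number of the 40 genes called was 0 by edgeR and also 0 with RLE size factors, library size alone, limma on either scale or a single identifier per symbol. It was 9 with DESeq2, and 1 (Pdia6) with no filter on low counts, with at least 10 counts in every library or with counts scaled to fragments. It ranged from 0 to 2 when 1 library was left out. Over all genes the count was 322, and 962 with DESeq2, 11 with limma on log2(FPKM + 1), 21 with limma on log2(FPKM + 0.1), and 21 (without Van 2) to 136 (without Con 1) with 1 library left out. Of the other pathway genes (0 called), DESeq2 called 6, library size alone 2, no filter 1, the filter at 10 counts in every library 3, counts scaled to fragments 2 and a single identifier 1. Of the cytosolic chaperones (12 called), DESeq2 called 18, all higher, limma called 4 and 5 on the same 2 scales, and 5 to 8 were called with 1 library left out. The cause of these shifts was not tested.

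The replicate numbers did not pair the mice (correlation of deviations 0.0817, -0.0354 and -0.182 for the same number). With the replicate number as a block, 110 genes were called in all, 0 of the 40, 0 of the other pathway genes and 9 of the cytosolic chaperones.

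The median of the ATF6 branch was -0.1198 to -0.0403 with 1 library left out. The PERK branch median was -0.0111 and -0.0125 with limma. Of the values of single genes under an alternative, 391 kept their direction and side of the threshold, 15 passed it and 10 changed sign. The last were Ero1l (0.0006 with library size alone, and -0.0463 to 0.0269 over the libraries left out), Atf4 (-0.0332 and -0.0334 with limma, and -0.0795 to 0.0829 over the libraries left out), Ddit3 (-0.1844 to 0.1908 over the same) and Eif2ak3 (-0.0103 to 0.0365 over the same).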

Other observations

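Outside the 40 genes, the element of their promoters was also held by other genes. Alg12, an enzyme of glycan assembly, had a log2 fold change of 0.12 (edgeR adjusted p = 0.571), Ero1lb, the second oxidase of the ER, 0.04 (adjusted p = 0.866) and Hnrnpa3, which encodes an RNA-binding protein, -0.03 (adjusted p = 0.895).

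The scale of the deposited counts is uncertain, and Pdia6 was called when they were scaled to fragments. Of the 40 genes, 36 were at 10 CPM or more in every library. For Trib3, Asns and Derl3, near 1 CPM, the standard errors of 0.32 to 0.66 on the log2 scale were larger than the median difference of 0.26 in the folding genes, so a difference of that median size was not detectable there. Gene-level values hold no measure of Xbp1 splicing, of ATF6 cleavage or of phosphorylation.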
